A study of Arabidopsis with 36 samples.

Results

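Rubisco fixes carbon dioxide in the chloroplast stroma. Its holoenzyme is built from large subunits, made in the plastid from the gene rbcL, and small subunits, made in the cytosol from the nuclear RBCS genes and imported. Rubisco activase (RCA), an ATPase of the AAA+ family, frees Rubisco of tightly bound sugar phosphates, so that the enzyme stays active in the light. In green tissue the RBCS and RCA transcripts are among the most abundant nuclear messages, and they are translated on cytosolic ribosomes.

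The 5 nuclear genes described are the 4 small subunit genes RBCS1A (AT1G67090), RBCS3B (AT5G38410), RBCS2B (AT5G38420) and RBCS1B (AT5G38430), and the activase gene RCA (AT2G39730). They were chosen by locus, not by their values, and are 5 of the 33035 loci in the gene table. RBCS1A lies on chromosome 1 and RCA on chromosome 2. RBCS3B, RBCS2B and RBCS1B lie side by side on chromosome 5. In the RefSeq annotation of assembly TAIR10.1 only 2 long noncoding RNA genes stand between RBCS3B and RBCS2B, and no gene stands between RBCS2B and RBCS1B. The small subunit transcripts are close copies of each other, so the split of reads among them rests on how the authors' quantification assigned shared reads, and the level of each single gene is uncertain to that extent.

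The libraries come from Arabidopsis seedlings grown for 11 days, all mock-treated. Of the 4 lines in the series, 2 could be tied to columns of the tables: the AtY34 overexpressor and the wild type (Col-2). The sources used here do not say what AtY34 encodes, which promoter drives it or how many transgenic lines were used, and the overexpression itself could not be checked. The AtYchF1 overexpressor and the AtYchF1 knockdown mutant were not analysed here. For each line RNA was sequenced from heavy polysomes, from light polysomes and from total RNA, with 3 libraries in each of the 6 groups. Polysome fractions are taken from a density gradient, on which messages with many ribosomes (heavy polysomes) sediment apart from messages with few (light polysomes).

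The deposited values are TPM, the length-corrected abundance of a transcript relative to all others in its library, and the number of reads behind them is not known. Comparisons of levels used scaled TPM, the nuclear TPM divided by a factor per library (0.736 to 1.39) that puts the median nuclear gene on one scale. The factors differed between fractions, and 1 nuclear locus, AT1G15405, held 14.9 to 19.9% of all TPM in total RNA libraries and 0.272 to 2.92% in polysome libraries. Green-tissue markers (CAB1, CAB3, LHCA1 and DRT112) summed to between 8279 and 16629 scaled TPM in every library. The 5 root markers summed to at most 42.6, the 3 seed storage markers to at most 83.6, and 1 of the 2 flower markers was listed at 0 in all 18 libraries. Levels relate to the RNA of a fraction, so they describe its composition and not the number of messages loaded on ribosomes.

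The 5 genes differed in level. Over the 18 libraries RBCS1A averaged 7246 scaled TPM and RBCS3B 7238, which were the 3rd and 4th highest of the 32801 nuclear loci. RBCS2B averaged 2062 (rank 27), RCA 1740 (rank 35) and RBCS1B 671 (rank 109). All 5 passed the filter on low values, and together they held 1.48 to 2.46% of all TPM in a library.

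The order of neighbours was not fixed. The log2 ratio of RBCS3B over RBCS1A ran between -0.27 and 0.43 across the libraries, and that of RBCS2B over RCA between -0.32 and 0.77, so neither pair was separated beyond its spread. RBCS1B stayed below RCA, and RBCS2B below both RBCS1A and RBCS3B, in every library. The highest library exceeded the lowest by 1.44-fold for RCA, 1.69-fold for RBCS1A, 1.79-fold for RBCS2B, 1.86-fold for RBCS1B and 1.88-fold for RBCS3B. The standard deviation of log2 level over the 18 libraries was 0.190 for RCA, 0.194 for RBCS3B, 0.216 for RBCS1A, 0.257 for RBCS1B and 0.269 for RBCS2B. The median over the 874 nuclear genes that averaged at least 100 scaled TPM was 0.375.

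**Figure D1:**
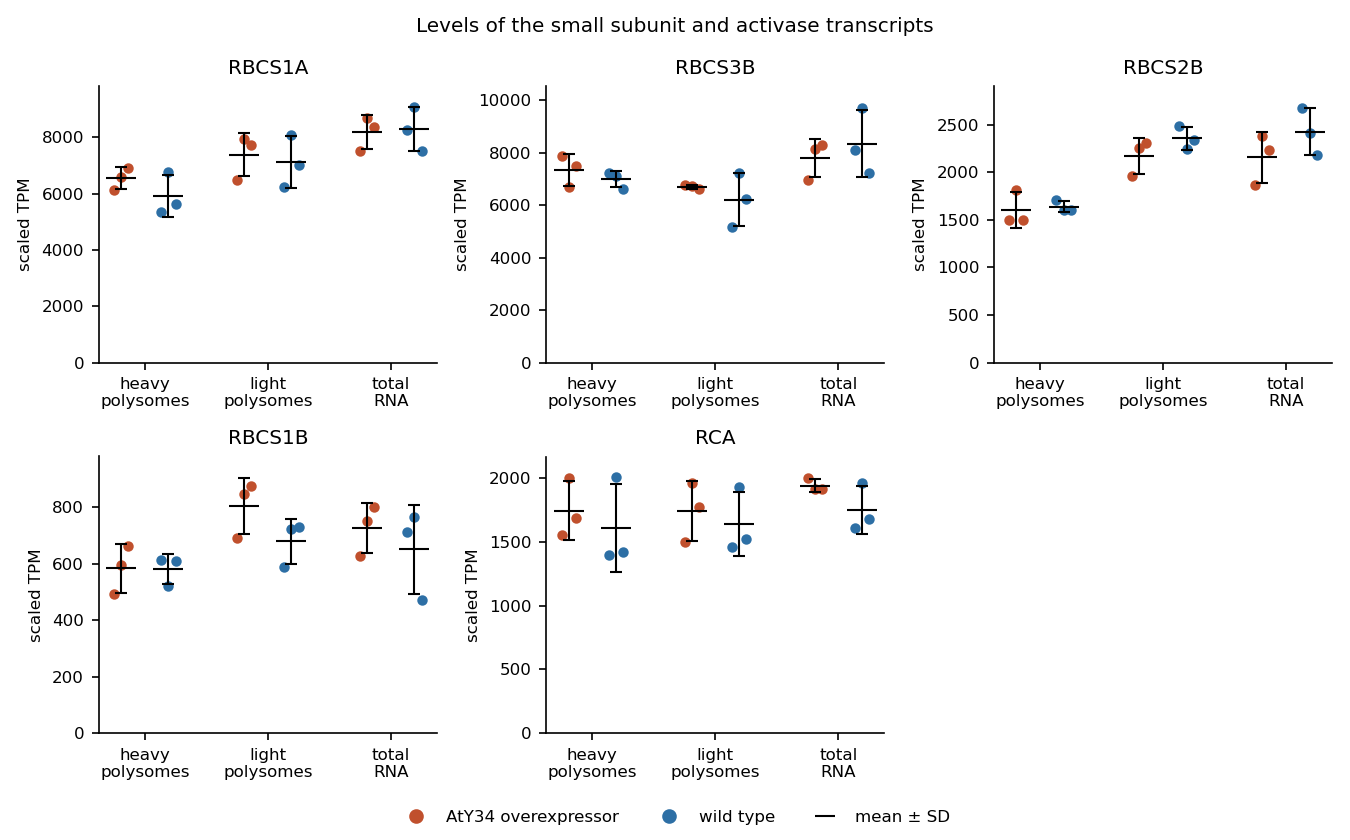
Scaled TPM of RBCS1A, RBCS3B, RBCS2B, RBCS1B and RCA (vertical axes, each from 0) in heavy polysomes, light polysomes and total RNA. Each point is 1 library of the AtY34 overexpressor or the wild type, and bars give the mean ± SD (n = 3). The 6 RBCS2B libraries of heavy polysomes, at 1497 to 1821, all lie below the 6 of light polysomes, at 1959.6 to 2492.

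On the scaled TPM, RBCS2B was the only member to pass the test between fractions. It was lower in heavy polysomes than in light polysomes, by 0.48 on the log2 scale, and lower than in total RNA, by 0.49. For light polysomes against total RNA the difference was -0.01, with a 95% interval of -0.23 to 0.20. The other 3 small subunit genes and RCA did not pass the test in any comparison of fractions, and within a single line no member passed. The heavy minus total difference of RBCS1A, at -0.41, was near that of RBCS2B.

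In heavy polysomes RBCS2B stood at 1501, 1821 and 1497 scaled TPM in the AtY34 overexpressor, against 1959.6, 2261 and 2309.8 in light polysomes of that line. The wild type had 1709, 1609 and 1599.7 in heavy polysomes, against 2492, 2247 and 2339.8 in light polysomes. The libraries of the 2 fractions did not overlap in either line, heavy being the lower. Of the 20171 nuclear genes tested, 2.83% were lower without overlap in both lines, and RBCS2B was 1 of 5 members.

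The differences were tested with limma on log2(scaled TPM + 1), with p-values adjusted by the Benjamini-Hochberg method over all 20171 genes and a threshold of 0.05. Averaged over the lines, the heavy minus light difference of RBCS2B was -0.48 (SE 0.10, 95% interval -0.70 to -0.27, limma adjusted p = 0.0107). That comparison called 4.68% of the genes tested, 2.8% as lower in heavy polysomes. Within a line the difference was -0.44 in the AtY34 overexpressor (limma adjusted p = 0.202) and -0.52 in the wild type (limma adjusted p = 0.104). Neither passed, where 0.689% and 0.957% of genes did. With TPM as deposited the mean of the lines was -0.32 and no longer passed (limma adjusted p = 0.180, range over the 18 alternatives 0.00422 to 0.180).

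In total RNA RBCS2B stood at 1864, 2384 and 2234 scaled TPM in the AtY34 overexpressor and at 2682, 2412 and 2188 in the wild type. The heavy polysome libraries lay below these in both lines. The heavy minus total difference over both lines was -0.49 (SE 0.10, 95% interval -0.71 to -0.28, limma adjusted p = 0.0260), in a comparison that called 0.947% of genes, 0.793% as lower. It was -0.43 in the AtY34 overexpressor (limma adjusted p = 0.365) and -0.56 in the wild type (limma adjusted p = 0.171), where 0.0644% and 0.129% of genes passed. This direction depended on the scaling: with TPM as deposited, where the median of all genes was itself 0.52 higher in heavy polysomes than in total RNA, RBCS2B stood at 0.13. With 1 library left out it passed in 5 of 12 fits. It did not pass without heavy polysome replicate 1 or 3 or total RNA replicate 2 or 3 of the AtY34 overexpressor, nor without heavy polysome replicate 3 or total RNA replicate 1 or 2 of the wild type, where it was -0.49 to -0.46 (limma adjusted p of 0.0519 to 0.0824, range over the 18 alternatives 0.00977 to 0.512).

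Before adjustment, at p under 0.05 and always as lower, the comparison of heavy with light polysomes held 2 of the 5 members in the AtY34 overexpressor (7.2% of genes), 1 in the wild type (7.05%) and 2 over both lines (10.7%). Heavy polysomes against total RNA held 1 in the AtY34 overexpressor (4.73% of genes), 2 in the wild type (5.21%) and 2 over both lines (6.67%). Light polysomes against total RNA held none in the AtY34 overexpressor (8.39% of genes in either direction), 1 in the wild type (3.22%) and 1 over both lines (4.19%). The unadjusted calls were RBCS2B, RBCS1B, RBCS1A or RBCS3B, never RCA.

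RBCS1A, with RBCS3B the main source of small subunit message, had 6133, 6591 and 6924 scaled TPM in heavy polysomes of the AtY34 overexpressor. It had 6505, 7941 and 7721 in light polysomes and 7532, 8697 and 8365 in total RNA of that line. Wild-type libraries gave 5365, 6779 and 5626 in heavy polysomes, 6240.1, 8094 and 7030.4 in light polysomes and 8271, 9078 and 7528 in total RNA. Heavy polysomes lay below total RNA without overlap in both lines, as 1.58% of genes tested did, and RBCS1A and RBCS2B were the 2 of 5 members for which this held. The heavy minus total difference of RBCS1A was -0.41 (SE 0.11, limma adjusted p = 0.0911), which did not pass. Its direction turned with TPM as deposited, at 0.22.

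RBCS3B, from the cluster on chromosome 5, had 7887, 6685 and 7509 scaled TPM in heavy polysomes of the AtY34 overexpressor. It had 6765, 6732 and 6608 in light polysomes and 6959, 8143 and 8309.8 in total RNA of that line. Wild-type seedlings had 7222, 7129 and 6636 in heavy polysomes, 5173, 7213 and 6249.7 in light polysomes and 8098, 9727 and 7237 in total RNA. Light polysomes lay below total RNA in both lines, by a margin of 7213 against 7237 in the wild type, as 0.863% of genes did. The light minus total difference was -0.32 (SE 0.11, limma adjusted p = 0.260) and did not pass, in a comparison that called 0.456% of genes and none of the 5 members. Within the AtY34 overexpressor that comparison called 0.109% of genes and within the wild type 0.104%. The direction of RBCS3B turned with TPM as deposited, at 0.15 over both lines, and after quantile normalization, at 0.16. Heavy minus total was -0.16 (limma adjusted p = 0.571) and turned to 0.46 with TPM as deposited, where it passed (limma adjusted p = 0.00974, range over the 18 alternatives 0.00974 to 0.748). The median of all genes was itself at 0.52 there, above RBCS3B, and 3579 of the 20171 genes tested were called, 3494 as higher.

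The heavy minus light difference of RBCS3B was 0.16 (95% interval -0.08 to 0.39), on the other side of 0 from the remaining small subunit genes. Among those, RBCS1A stood at -0.22 (95% interval -0.45 to 0.01) and RBCS1B at -0.34 (95% interval -0.63 to -0.06). Neither passed, with limma adjusted p = 0.313 for RBCS1A and 0.176 for RBCS1B.

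RBCS1B, the least abundant of the 4, had 492, 595 and 664 scaled TPM in heavy polysomes of the AtY34 overexpressor, 691, 846 and 875 in light polysomes and 628, 753 and 800.4 in total RNA. The wild type gave 615, 519.6 and 608 in heavy polysomes, 588, 723 and 731 in light polysomes and 714, 767 and 471 in total RNA. Heavy polysomes lay below light polysomes without overlap in the AtY34 overexpressor, as 9.51% of genes did, and the fractions overlapped in the wild type. Whether the lines differ in this was tested by the interaction, which gave -0.24 and did not pass.

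**Figure D2:**
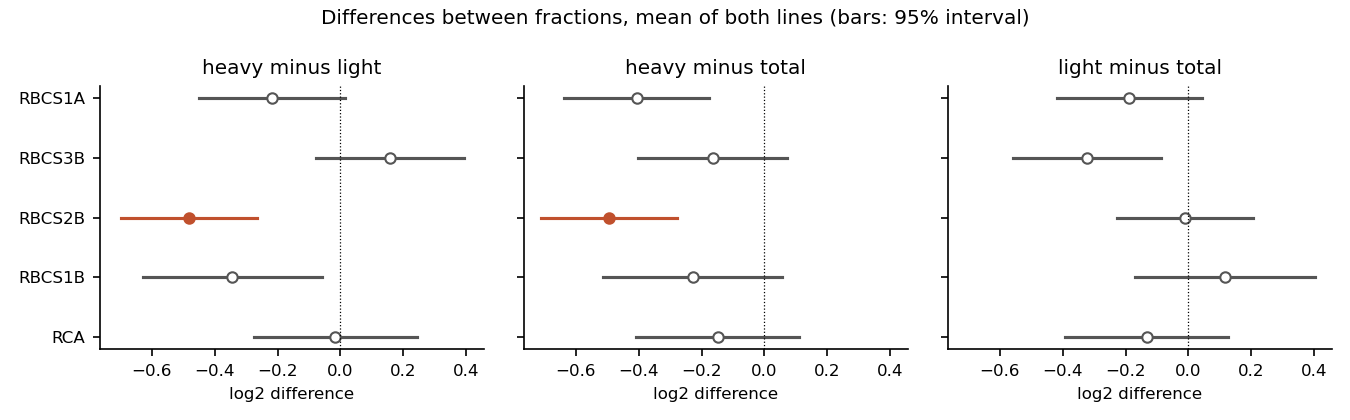
Differences in log2(scaled TPM + 1) between fractions (horizontal axes), as the mean over both lines, for heavy minus light polysomes, heavy polysomes minus total RNA and light polysomes minus total RNA. Points are limma estimates and bars their 95% intervals, and filled points passed an adjusted p of 0.05: RBCS2B at -0.48 and -0.49.

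The green-tissue markers also differed between fractions. Their sum was 8279 to 10156 scaled TPM in heavy polysomes, 8316 to 11323 in light polysomes and 13016 to 14390.3 in total RNA of the AtY34 overexpressor. For the wild type it was 9105 to 10576 in heavy polysomes, 9358 to 12166 in light polysomes and 15027 to 16629 in total RNA. Of the 4, the chlorophyll-binding protein genes CAB1 and CAB3 fell in heavy polysomes against total RNA, by 0.97 and 0.83 on the log2 scale (limma adjusted p = 0.000999 and 0.00892). LHCA1 was at -0.36 and the plastocyanin gene DRT112 at 0.37, and neither passed. With TPM as deposited CAB1 was at -0.35 and CAB3 at -0.20, and neither passed there. Quantile normalization gave -0.63 and -0.58, and neither passed (limma adjusted p = 0.154 and 0.228). Between heavy and light polysomes DRT112 rose by 1.0 (limma adjusted p = 4.7e-05) and the other 3 did not pass. In light polysomes against total RNA CAB1 fell by 0.70 (limma adjusted p = 0.0199) and DRT112 by 0.63 (limma adjusted p = 0.0121), at -0.23 and -0.16 with TPM as deposited, where neither passed. After quantile normalization they were at -0.45 and -0.35, and neither passed (limma adjusted p = 0.419 and 0.297). CAB3 and LHCA1 did not pass in that comparison. What part a shift shared by green-tissue messages has in the RBCS2B, RBCS1A and RBCS3B values was not tested.

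The make-up of the small subunit pool does not depend on the scaling between libraries, since each gene is given as a share of the 4 summed within a library. RBCS3B took a larger share in heavy polysomes than in light polysomes, and the other 3 genes a smaller one. In the AtY34 overexpressor the share of RBCS3B was 49.3, 42.6 and 45.3% in heavy polysomes, against 42.5, 37.9 and 37.7% in light polysomes. The wild-type share was 48.4, 44.5 and 45.9% in heavy polysomes, against 35.7, 39.5 and 38.2% in light polysomes. In total RNA it was 41.0, 40.8 and 42.2% in the AtY34 overexpressor and 41.0, 44.2 and 41.5% in the wild type. Every heavy polysome library thus lay above every light polysome and total RNA library of its own line, by as little as 42.6 against 42.5%.

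Within 1 line, 3 libraries against 3 cannot give an exact permutation p below 0.1, the value that the RBCS3B shares gave for heavy polysomes against both other fractions in each line. A test over both lines, which exchanges libraries only within a line and was chosen after seeing the data, has a smallest p of 0.005. Replicate numbers are ignored in it, and no share test that pairs libraries by replicate number was run. By this exact permutation test, two-sided and adjusted over 24 related comparisons, the share of RBCS3B rose by 7.40 percentage points in heavy against light polysomes (p = 0.005, adjusted p = 0.0171). It rose by 4.20 points in heavy polysomes against total RNA (exact p = 0.005, adjusted p = 0.0171) and differed by -3.197 points in light polysomes against total RNA (exact p = 0.03, adjusted p = 0.045). These shares sum to 100, so the 4 genes' tests are not independent. How often shares in other gene families, or ratios of other gene pairs, separate without overlap was not counted.

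The share of RBCS2B was 9.37, 11.6 and 9.02% in heavy polysomes of the AtY34 overexpressor, against 12.3, 12.7 and 13.2% in light polysomes. Wild-type values were 11.5, 10.03 and 11.1% in heavy polysomes, against 17.2, 12.3 and 14.3% in light polysomes. In both lines all heavy polysome libraries were the lower, and the mean difference of -3.24 points passed the same test (exact p = 0.005, adjusted p = 0.0171). Against total RNA, at 11.0 to 11.9% in the AtY34 overexpressor and 11.0 to 13.6% in the wild type, heavy polysomes differed by -1.47 points and did not pass (exact p = 0.05, adjusted p = 0.0632).

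RBCS1A held 38.3 to 42.0% of the pool in heavy polysomes, 40.9 to 44.7% in light polysomes and 42.4 to 44.3% in total RNA of the AtY34 overexpressor. It held 36.0 to 42.3% in heavy polysomes, 43.0 to 44.3% in light polysomes and 41.3 to 43.2% in total RNA of the wild type. The difference was -3.46 points between heavy and light polysomes (exact p = 0.035, adjusted p = 0.0467) and -2.92 points between heavy polysomes and total RNA (exact p = 0.025, adjusted p = 0.045). RBCS1B held the smallest share, 2.71 to 4.998% over all libraries. Its share was 0.87 points higher in light polysomes than in total RNA (exact p = 0.005, adjusted p = 0.0171) and 0.69 points lower in heavy than in light polysomes, a difference of -0.69 (exact p = 0.03, adjusted p = 0.045).

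Set against each other, RBCS3B and RBCS2B, neighbours on chromosome 5, showed the widest contrast among the 3 ratios tested. They had the highest and lowest heavy minus light differences of the members, so neither the width of their ratio nor its p-value is a separate finding. The ratios were not among the planned tests. No ratio with RBCS1B was tested. The log2 ratio of RBCS3B over RBCS2B averaged 2.15 in heavy polysomes and 1.51 in light polysomes over the 2 lines, a difference of 0.64 (exact p = 0.005, adjusted p = 0.0171). The difference was 0.57 in the AtY34 overexpressor and 0.71 in the wild type, with no overlap in either. RBCS3B over RBCS1A differed by 0.38 (exact p = 0.01, adjusted p = 0.0267) and RBCS1A over RBCS2B by 0.27 (exact p = 0.03, adjusted p = 0.045). Between heavy polysomes and total RNA, RBCS1A over RBCS2B differed by 0.09 and did not pass (exact p = 0.32, adjusted p = 0.349). RBCS3B over RBCS2B differed there by 0.33 (exact p = 0.015, adjusted p = 0.036) and RBCS3B over RBCS1A by 0.24 (exact p = 0.01, adjusted p = 0.0267).

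**Figure D3:**
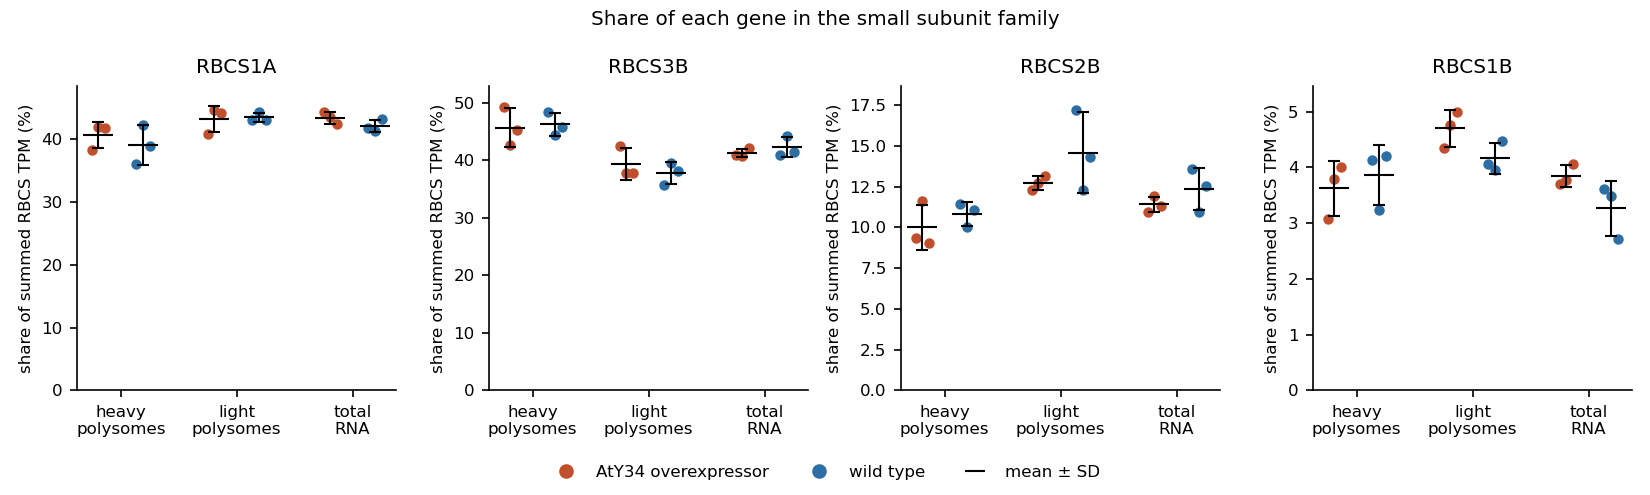
Share of RBCS1A, RBCS3B, RBCS2B and RBCS1B in the summed TPM of the 4 small subunit genes (vertical axes in percent, each from 0) by fraction. Each point is 1 library of the AtY34 overexpressor or the wild type, with the mean ± SD (n = 3). The share of RBCS3B averages 45.7% and 46.2% in heavy polysomes, against 39.4% and 37.8% in light polysomes.

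On the scaled TPM, RCA did not pass the test between any fractions, and for heavy polysomes against total RNA that rested on the scaling. In heavy polysomes it had 1556, 2001 and 1686 scaled TPM in the AtY34 overexpressor and 1401, 2012 and 1423 in the wild type. In light polysomes it had 1498, 1966 and 1772 in the AtY34 overexpressor and 1464, 1929 and 1527 in the wild type. In total RNA it had 2002, 1914 and 1914 in the AtY34 overexpressor and 1609, 1965 and 1685 in the wild type. The libraries of all fractions overlapped in both lines. The heavy minus light difference was -0.02 (95% interval -0.28 to 0.24, limma adjusted p = 0.967), heavy minus total -0.15 (95% interval -0.41 to 0.11, limma adjusted p = 0.657) and light minus total -0.13 (95% interval -0.39 to 0.13, limma adjusted p = 0.733). With TPM as deposited heavy minus total turned to 0.48 and passed (limma adjusted p = 0.0195, range over the 18 alternatives 0.0195 to 0.903), and light minus total turned to 0.33 and did not pass. The median of all genes was itself at 0.52 and 0.45 in these comparisons, so RCA rose no more than the median gene. Heavy minus total called 3579 of the 20171 genes tested there, 3494 of them as higher. The deposited TPM of RCA was 1718 to 2780.1 in heavy polysomes, against 1464 to 1563 in total RNA of the AtY34 overexpressor. The wild type had 1687 to 2233 in heavy polysomes, against 1256 to 1447 in total RNA. Without the scaling heavy polysomes and total RNA were thus apart in both lines, and the share of all genes that were so was not counted. Light polysomes, at 1556 to 2120 in the AtY34 overexpressor and 1589 to 1882 in the wild type, overlapped heavy polysomes in both. The sum of the 4 small subunit genes was 7.84 to 12.3 times RCA, with group means of 9.33, 9.85 and 9.74 in heavy polysomes, light polysomes and total RNA of the AtY34 overexpressor. In the wild type those means were 9.59, 10.03 and 11.3.

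The transcripts of RCA did not keep the same balance. The transcript table holds 3, of which AT2G39730.3 made up at most 0.736% of the gene's TPM and was listed at 0 in many libraries. AT2G39730.1 and AT2G39730.2 made up the rest in near-equal parts. Arabidopsis makes a long and a short activase by alternative splicing, and the long form carries the cysteines through which activity responds to the redox state. The sources used here do not say which of the listed transcripts encodes which form.

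AT2G39730.1 stood at 910.3, 1125 and 923 scaled TPM in heavy polysomes of the AtY34 overexpressor, against 744, 923 and 856 in light polysomes. AT2G39730.2 stood at 641, 876 and 763 in heavy polysomes of that line, against 754, 1042 and 911 in light polysomes. The same crossing was seen in the wild type, where AT2G39730.1 averaged 886 ± 191 in heavy and 796 ± 162 in light polysomes. AT2G39730.2 averaged 725 ± 160.1 in heavy and 841 ± 99.2 in light polysomes of the wild type (SD, n = 3 each).

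As a share of the gene's transcripts, AT2G39730.1 was 58.5, 56.2 and 54.7% in heavy polysomes of the AtY34 overexpressor, against 49.6, 47.0 and 48.3% in light polysomes. In the wild type it was 56.6, 54.9 and 53.4% in heavy polysomes, against 49.0, 50.9 and 45.1% in light polysomes. Total RNA lay between, at 52.8, 54.3 and 52.3% in the AtY34 overexpressor and 54.6, 54.0 and 51.4% in the wild type. Heavy and light polysomes did not overlap in either line. The share of other genes whose transcript balance was apart in this way was not counted.

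Over both lines AT2G39730.1 rose by 7.40 percentage points in heavy against light polysomes (exact p = 0.005, adjusted p = 0.0171) and fell by 4.90 points in light polysomes against total RNA (exact p = 0.005, adjusted p = 0.0171). Heavy polysomes exceeded total RNA by 2.50 points (exact p = 0.03, adjusted p = 0.045), with libraries that overlapped in the wild type. This is the same test over both lines, chosen after seeing the data, and within a line no p can be below 0.1. The 2 transcripts share most of their sequence, so their split rests on the authors' estimation and not on reads unique to each. The other alternative transcripts were minor: AT1G67090.2 of RBCS1A reached 4.52 scaled TPM, and AT5G38410.2 and AT5G38410.3 of RBCS3B reached 37.9 and 15.9. AT2G39725, which overlaps RCA, reached 17.1 scaled TPM.

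**Figure D4:**
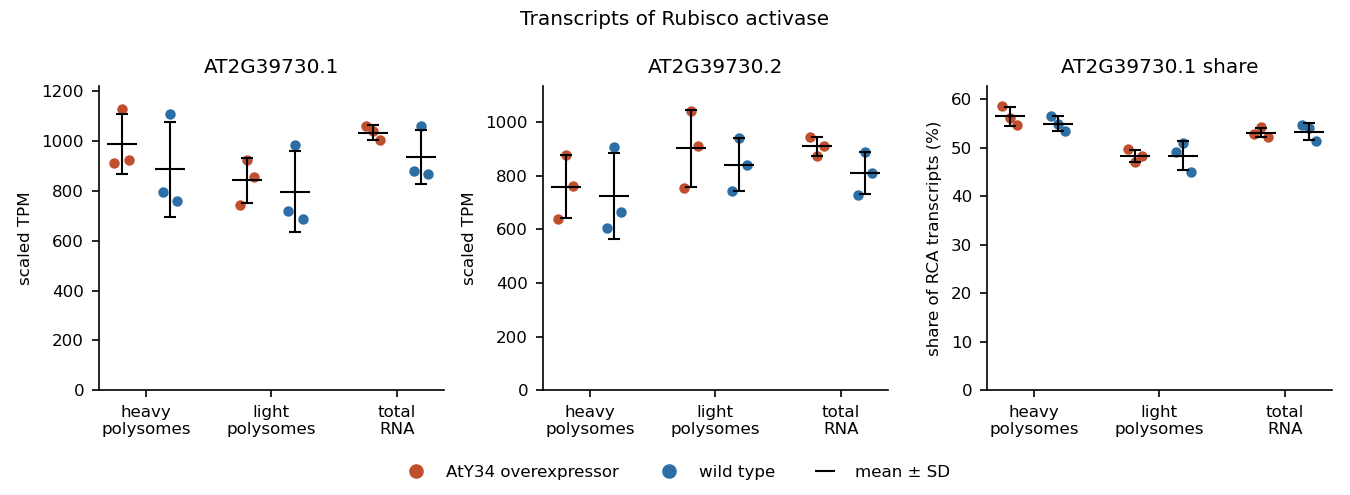
The 2 main RCA transcripts by fraction: scaled TPM of AT2G39730.1 and AT2G39730.2, and the share of AT2G39730.1 in the gene's transcripts in percent (vertical axes, each from 0). Each point is 1 library of the AtY34 overexpressor or the wild type, with the mean ± SD (n = 3). The share averages 56.5% and 55.0% in heavy polysomes, against 48.3% in light polysomes of both lines.

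The large subunit message, from rbcL (ATCG00490) in the plastid genome, is translated on plastid ribosomes. It is given as TPM as deposited and without a test, because the scaling was built on nuclear genes, and was the 2nd highest of the 114 plastid loci. It had 23950.2, 28706 and 21982 TPM in heavy polysomes, 32061, 37275 and 34332 in light polysomes and 24698, 23569 and 21009.8 in total RNA of the AtY34 overexpressor. Wild-type libraries held 21909.6, 29342 and 21897 in heavy polysomes, 41876, 46288 and 34149 in light polysomes and 23839, 31276 and 21378 in total RNA. In TPM as deposited, light polysomes were above both other fractions in every library of each line. AT1G15405 held 14.9 to 19.9% of that TPM in total RNA and 0.272 to 2.92% in polysomes. Its part in the order against total RNA was not tested, and the share of plastid loci so ordered was not counted.

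Relative to the 4 small subunit genes summed in the same library, rbcL was 1.12 to 1.35 times as high in heavy polysomes, 1.64 to 1.97 in light polysomes and 1.31 to 1.87 in total RNA of the AtY34 overexpressor. In the wild type the ratio was 1.18 to 1.65 in heavy polysomes, 1.92 to 2.66 in light polysomes and 1.54 to 1.93 in total RNA. In both lines heavy and light polysomes were apart, and how many plastid loci were so was not counted. As a share of all plastid TPM, rbcL averaged 9.43% in heavy polysomes, 11.3% in light polysomes and 7.66% in total RNA of the AtY34 overexpressor, and 9.38%, 12.3% and 7.97% in the same fractions of the wild type.

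Between the AtY34 overexpressor and the wild type, none of the 5 genes passed the limma test in heavy polysomes, light polysomes or total RNA, and none was under an unadjusted p of 0.05. Those comparisons called 0.0198%, 0.0347% and 0.0793% of genes after adjustment, and 4.47%, 4.59% and 8.13% before it. In heavy polysomes the difference was 0.15 for RBCS1A (95% interval -0.18 to 0.48), 0.07 for RBCS3B (-0.26 to 0.40), -0.04 for RBCS2B (-0.34 to 0.27), 0.00 for RBCS1B (-0.40 to 0.40) and 0.13 for RCA (-0.24 to 0.50). In light polysomes the differences ran from -0.12 for RBCS2B to 0.24 for RBCS1B, whose 95% interval was -0.16 to 0.64. In total RNA they ran from -0.17 for RBCS2B (95% interval -0.48 to 0.14) to 0.18 for RBCS1B (95% interval -0.22 to 0.59).

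RCA was 0.09 higher in light polysomes and 0.15 higher in total RNA of the AtY34 overexpressor, with 95% intervals of -0.28 to 0.46 and -0.21 to 0.52. RBCS1A differed by 0.06 in light polysomes and -0.01 in total RNA, and RBCS3B by 0.12 and -0.09. Over all 15 comparisons the intervals reached from -0.48 to 0.64 on the log2 scale, so the values do not show that the lines are alike. In these bulk samples fewer cells of a type and less RNA per cell cannot be told apart. The seed storage markers summed to 0 to 9.54 scaled TPM in the AtY34 overexpressor and 1.99 to 83.6 in the wild type, and their part in these values was not tested.

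Whether a difference between fractions itself differed between the lines was tested for the 5 genes in all 3 contrasts. None of the 15 interaction tests passed (limma adjusted p of 0.970 or more), and none was under an unadjusted p of 0.05. Of all genes, 0% passed for heavy against light polysomes, 0.00496% for heavy polysomes against total RNA and 0.00992% for light polysomes against total RNA. Before adjustment the shares were 3.43%, 5.07% and 5.4%. For heavy against light polysomes the AtY34 overexpressor minus wild type values ran from -0.24 for RBCS1B to 0.09 for RBCS1A. For the shares of the small subunit genes and of AT2G39730.1, 3 libraries of 1 line against 3 of the other cannot give an exact p below 0.1, so no test between lines could pass. The libraries of the lines did not overlap for RBCS1B in total RNA, at 3.70, 3.77 and 4.06% in the AtY34 overexpressor against 3.61, 3.49 and 2.71% in the wild type (exact permutation p = 0.1, adjusted p = 0.800 over 24 comparisons).

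**Figure D5:**
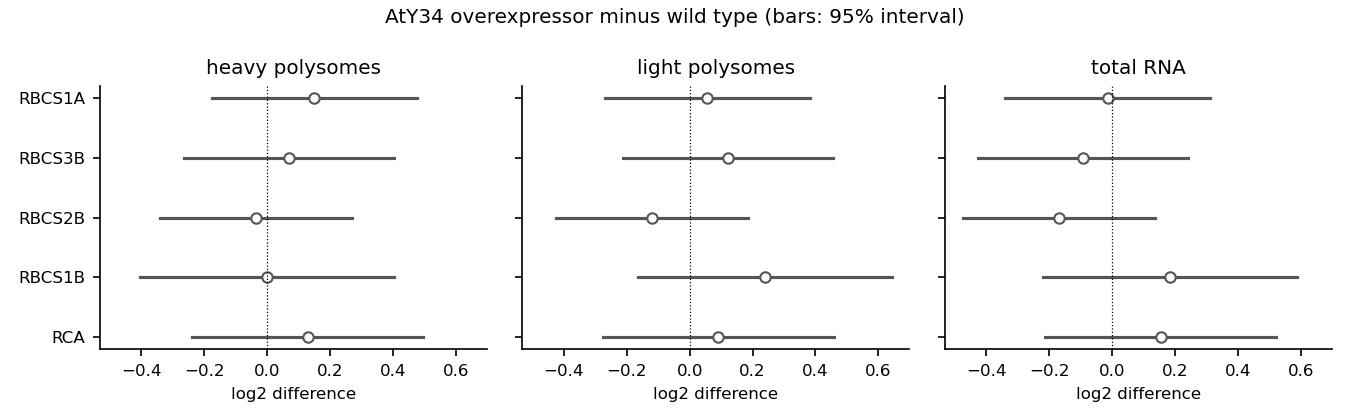
Differences in log2(scaled TPM + 1) between the AtY34 overexpressor and the wild type (horizontal axes; positive values are higher in the AtY34 overexpressor) in heavy polysomes, light polysomes and total RNA. Points are limma estimates and bars their 95% intervals for RBCS1A, RBCS3B, RBCS2B, RBCS1B and RCA. All 15 intervals include 0.

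The genes that act with Rubisco were taken as 2 lists. Of 19 Calvin cycle genes, all tested, 4 rose and 1 fell in heavy against light polysomes over both lines, beside 1.88% and 2.8% of all genes, with a median difference of 0.04 against -0.06 over all genes tested. Phosphoglycerate kinase PGK1 rose by 0.47 (limma adjusted p = 0.0208), transketolase TKL1 by 0.52 (0.0144), ribose-5-phosphate isomerase RPI3 by 0.94 (0.0199) and CP12-2, a small protein that binds the cycle's dehydrogenase and kinase, by 0.63 (0.0417). The glyceraldehyde-3-phosphate dehydrogenase gene GAPA2 fell by 0.48 (0.0372), a call that was lost with TPM as deposited (-0.32, limma adjusted p = 0.217) and after quantile normalization (-0.49, limma adjusted p = 0.0891). The lowest value was -0.97 for CP12-3, which did not pass. Within 1 line only RPI3 passed, at 1.47 in the wild type (limma adjusted p = 0.0283). In heavy polysomes against total RNA only GAPA1 fell, at -0.73 (limma adjusted p = 0.0122), and none rose; the list's median was -0.30 against 0.06 over all genes.

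In light polysomes against total RNA the fructose-1,6-bisphosphatase gene CFBP1 fell, at -0.58 (limma adjusted p = 0.0435), none rose, and the median was -0.33 against 0.10. With TPM as deposited GAPA1 was at -0.11 and CFBP1 at -0.11, and neither passed. Quantile normalization gave -0.62 for GAPA1 and -0.52 for CFBP1, and neither passed there (limma adjusted p = 0.0974 and 0.0867). Of the 13 genes for Rubisco folding and assembly, none passed in any comparison by limma. At an unadjusted p under 0.05, 4 were higher and 2 lower in heavy against light polysomes over both lines, beside 7.05% and 10.7% of all genes. The list's median there was 0.03, with a lowest value of -1.03 for the chaperonin subunit CPN60B4. In heavy polysomes against total RNA the values ran from -1.08 for CPN60B4 to 0.88 for the chaperonin subunit CPN60B2, with a median of 0.01.

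For each gene, the 869 nuclear genes outside the 5 that averaged at least 100 scaled TPM were ordered by how far their log2 profile over the 18 libraries, centred on its own mean, lay from that of the gene (root mean square difference, in log2 units). This is a description with no test, and libraries, fractions and scaling are shared by all profiles. RBCS1A was nearest to the photorespiratory glycolate oxidase GOX1 (0.113), the Calvin cycle dehydrogenase subunit GAPB (0.119) and the antenna protein LHCB4.1 (0.137), where the median gene lay at 0.424. RBCS3B was nearest to the oxygen-evolving complex protein PSBP-1 (0.135), the iron superoxide dismutase FSD1 (0.137) and the ribosomal protein P40 (0.139).

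RBCS2B was nearest to the thylakoid insertase ALB3 (0.130), the ubiquitin-conjugating enzyme UBC10 (0.157) and the actin ACT2 (0.161). RBCS1B was nearest to ACT2 (0.192), GOX1 (0.197) and STO (0.208). Outside the 5, RCA was nearest to the antenna protein LHCA2 (0.167), the glycolate oxidase GOX2 (0.175) and the photorespiratory aminotransferase AGT (0.175). Among the 5 themselves, RCA and RBCS1A lay at 0.155 from each other, closer than any of the 869 genes lay to RCA. RBCS1A lay at 0.193 from RBCS3B, 0.197 from RBCS2B and 0.216 from RBCS1B, and RBCS2B and RBCS3B were farthest apart, at 0.320.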

How the data were processed

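Stranded, rRNA-depleted libraries were made from column-purified RNA, per the labels' protocols; the tools named are FastQC, MultiQC and STAR and the build is TAIR10, per the submitters' processing notes, without versions. The authors deposited TPM per gene and per transcript; the names of the tables hold the word salmon, a transcript quantifier, while the labels state neither the counting step nor read depth, and no count model was used. Columns matching no label (18 in the gene table, 54 in the transcript table) were not used. The 18 libraries (0 of 153 pairs identical, within-group r 0.803 to 0.874) were scaled by median ratios over the 9431 nuclear genes at 1 TPM or more in every library. Nuclear loci with TPM of at least 1 in 3 or more libraries (20171) were tested with limma 3.58.1 (R 4.3.3) on log2(scaled TPM + 1), which understates changes of low genes: one mean per line and fraction, trended variance, two-sided, Benjamini-Hochberg adjustment per comparison. The fit was tested on simulated data. Shares were tested by exact permutation (SciPy 1.17.1). Nothing says that replicates came from separate plantings, so p-values measure the spread between libraries, which may be technical. The genes, lists and tests were chosen with earlier results of these data known. Genes named are the 5 members, rbcL, list members past the threshold, each list's extremes and the 3 most alike profiles. The highest value of 1 list in 1 comparison is not reported here.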

Additional observations from a re-analysis of the deposited data

How the results depend on the processing

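A pseudocount of 0.1 and no filter on low values moved no call among the 60 member differences. For heavy minus light polysomes over both lines, RBCS2B kept its direction in all 18 alternatives and passed in all 12 fits that left out 1 library, with -0.53 to -0.46. With TPM as deposited 0 members passed in place of 1. For heavy minus total over both lines the count of members that passed was 2 with TPM as deposited (RBCS3B and RCA, both higher), 0 after quantile normalization (RBCS2B at -0.35, limma adjusted p = 0.310), 0 with only the libraries compared (RBCS2B, limma adjusted p = 0.0800) and 0 to 1 with 1 library left out, against 1. For light minus total over both lines it was 2 with TPM as deposited (RBCS1B at 0.58 and RBCS2B at 0.46), against 0. In that setting heavy minus total called 3579 of the 20171 genes tested, 3494 of them as higher. Light minus total called 1177, of which 1153 were higher, so these member counts stand within a shift of the genes at large. Over all genes tested replicate numbers gave little sign of pairing, with same-number correlations of deviations of -0.0637 to 0.0589. That does not exclude a pairing. In the wild type RBCS1A and RCA were each highest in replicate 2 of every fraction, which did not hold in the AtY34 overexpressor. With the replicate number as a block the count was 1 for heavy minus light in the wild type (RBCS2B, -0.52, limma adjusted p = 0.0439), against 0, and 2 for heavy minus total over both lines (RBCS1A and RBCS2B), against 1; no other count moved.

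With TPM as deposited, where the median of all genes stood 0.52 higher in heavy polysomes and 0.45 higher in light polysomes than in total RNA, 30 of the 60 differences changed sign. Heavy minus total became, in the AtY34 overexpressor, the wild type and their mean, 0.31, 0.13 and 0.22 for RBCS1A, 0.31, 0.48 and 0.40 for RBCS1B, 0.21, 0.060 and 0.13 for RBCS2B, 0.55, 0.38 and 0.46 for RBCS3B, and 0.47, 0.49 and 0.48 for RCA. In the same order light minus total became 0.33, 0.23 and 0.28 for RBCS1A, 0.27, 0.023 and 0.15 for RBCS3B, and 0.32, 0.35 and 0.33 for RCA. RBCS2B turned to 0.42 in the wild type and 0.46 in the mean. RCA heavy minus light turned to 0.13 in the wild type and 0.15 in the mean. AtY34 overexpressor minus wild type turned to 0.023 for RBCS1A in total RNA and 0.015 for RBCS2B in heavy polysomes.

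Quantile normalization, which replaces the values of the few most abundant transcripts by averages of their rank, turned 21. Heavy minus total became 0.14 in the wild type and 0.014 in the mean for RBCS1A. For RBCS3B it became 1.11 in the AtY34 overexpressor, 0.36 in the wild type and 0.74 in the mean, and for RCA 0.11, 0.043 and 0.075. Light minus total became 0.22, 0.093 and 0.16 for RBCS3B and 0.059, 0.22 and 0.14 for RCA. In the wild type and the mean it became 0.49 and 0.23 for RBCS1A, and 0.33 and 0.26 for RBCS2B. AtY34 overexpressor minus wild type turned to 0.44 in total RNA and -0.066 in light polysomes for RBCS1A, and to 0.066 in heavy polysomes for RBCS2B.

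Leaving out 1 library turned 14 differences, none of which had passed. Heavy minus light of RCA ranged over -0.10 to 0.093 in the AtY34 overexpressor, -0.20 to 0.088 in the wild type and -0.10 to 0.045 in the mean. Light minus total ranged over -0.088 to 0.089 (AtY34 overexpressor), -0.11 to 0.037 (wild type) and -0.063 to 0.026 (mean) for RBCS2B, and over -0.13 to 0.22 for RBCS1B in the wild type. AtY34 overexpressor minus wild type ranged in total RNA over -0.083 to 0.052 for RBCS1A, -0.033 to 0.32 for RBCS1B and -0.19 to 0.023 for RBCS3B. It ranged in light polysomes over -0.035 to 0.15 for RBCS1A and -0.0028 to 0.24 for RBCS3B, and in heavy polysomes over -0.098 to 0.12 for RBCS1B and -0.13 to 0.013 for RBCS2B.

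Of 30 share differences within a line, 3 turned with 1 library left out. RBCS1A light minus total in the AtY34 overexpressor ranged over -0.97 to 0.93 points, RBCS1B heavy minus light in the wild type over -0.48 to 0.0048 and RBCS1B heavy minus total in the AtY34 overexpressor over -0.41 to 0.053. The last and the first were of the other sign over both lines, at 0.18 and 0.55 points. The cause of these changes was not tested. Depth is not known, so no counting error could be given, and 3 libraries per group limit what could pass.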
